A study of Rattus norvegicus with 12 samples.

Results

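Mitochondrial ribosomal proteins were examined in neonatal rat ventricular myocytes (NRVMs), the heart muscle cells of newborn Sprague-Dawley rats kept in culture. The members were all genes of the expression tables whose symbol begins with Mrpl or Mrps and a digit, which gave 76 of 18469 genes, 46 with an Mrpl and 30 with an Mrps symbol. RNA-seq libraries had been made from 4 groups of 3 libraries each. The siNeg group carried a negative control siRNA and no further treatment, and the siNeg.PE group carried the same siRNA followed by phenylephrine (PE), an α-adrenergic agonist that enlarges cardiomyocytes. The siSlc25a26 group carried an siRNA against Slc25a26, the mitochondrial carrier of S-adenosylmethionine, and the siSlc25a26.PE group carried that siRNA followed by PE. By the labels, PE began 12 h after transfection and lasted 36 h. Every group was transfected, so no library came from cells without an siRNA, and 1 siRNA name stood for each target. According to the methods read for this series, the cells came from ventricles and were separated from fibroblasts in a density gradient. Fibroblast markers were still read at high levels in these libraries, as given with the other cell type markers below. The member values are thus those of the whole culture. The methods read for this series call the replicates of a group independent biological samples, but describe another siRNA, and the labels do not say whether the 3 libraries of a group came from separate cultures or isolations, so p-values measure only the spread between these libraries.

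The mitochondrial ribosome, or mitoribosome, translates the few proteins that mitochondrial DNA encodes, all of them membrane subunits of the respiratory chain and ATP synthase. Its RNAs are made inside the mitochondrion, while all of its proteins are encoded in the nucleus, made in the cytosol and imported. It has a large subunit, which forms peptide bonds and holds most Mrpl products, and a small subunit, which decodes the messenger and holds most Mrps products. A part of the proteins descends from bacterial ribosomal proteins and a part has no bacterial counterpart. S-adenosylmethionine is the methyl donor for the modification of mitochondrial ribosomal RNA. Cardiomyocytes are rich in mitochondria, and inherited defects of several of these proteins cause cardiomyopathy.

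Library totals were 24770972 to 28709049 estimated counts, and the members took 0.324% to 0.411% of them. Slc25a26 itself was at 33.2, 31.6 and 29.2 CPM (estimated counts scaled to a common library size) in siNeg and at 15.8, 14.9 and 14.7 CPM in siSlc25a26 (log2 fold change -1.08, edgeR, adjusted p = 1.08e-05). Under PE it was at 113.3, 106.4 and 86.2 CPM with siNeg, whereas the libraries that bear the label siSlc25a26.PE gave 101.9, 106.1 and 98.8 CPM, so the groups overlapped (log2 fold change -0.0062, adjusted p = 0.969). The lower level that the label siSlc25a26.PE names was thus not seen, and directions between the PE groups below are those of the libraries as labelled. Interferon-induced genes separated the siRNAs. All 16 tested without PE were higher in siSlc25a26 and 16 of 17 were higher in the libraries labelled siSlc25a26.PE than in siNeg.PE, with summed levels of 264 to 302 CPM in siNeg and, with PE added, 201 to 225 CPM, against 9708 to 10522 CPM in siSlc25a26 and 5845 to 6466 CPM in siSlc25a26.PE.

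Promoter windows from RefSeq (assembly GRCr8, 250 bases before to 50 bases after the annotated start, 5′ to 3′ along the gene) were given for 61 of the 76 members. The sequences below are those of members that moved together in the comparisons that follow, or that moved against them. Mrps18a and Mrps27 were higher with PE and lower with siSlc25a26, as was Mrpl12. Mrpl22 and Mrps18b were higher with siSlc25a26. Mrpl36 was lower with both. Capitals mark 4 motifs searched on both strands, which are the NRF1 core CGCATGCG, the ETS core CCGGAAG bound by GABP, the YY1 core AAGATGGC and the E-box CACGTG.
Mrps18a (chr9:22367331-22367630, minus strand): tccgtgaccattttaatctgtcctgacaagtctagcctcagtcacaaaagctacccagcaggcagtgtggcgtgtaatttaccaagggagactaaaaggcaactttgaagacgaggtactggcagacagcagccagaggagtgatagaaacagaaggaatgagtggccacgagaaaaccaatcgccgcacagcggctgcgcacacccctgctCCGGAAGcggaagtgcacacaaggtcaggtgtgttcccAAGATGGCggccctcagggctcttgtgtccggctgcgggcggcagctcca
Mrps27 (chr2:32473954-32474253, plus strand): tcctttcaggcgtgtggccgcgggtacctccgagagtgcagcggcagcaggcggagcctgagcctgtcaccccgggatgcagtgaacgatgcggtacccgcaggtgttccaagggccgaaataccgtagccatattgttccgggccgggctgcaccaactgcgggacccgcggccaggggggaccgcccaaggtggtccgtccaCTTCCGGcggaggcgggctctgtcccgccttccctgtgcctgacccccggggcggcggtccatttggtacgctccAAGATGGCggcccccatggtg
Mrpl12 (chr10:106256496-106256795, plus strand): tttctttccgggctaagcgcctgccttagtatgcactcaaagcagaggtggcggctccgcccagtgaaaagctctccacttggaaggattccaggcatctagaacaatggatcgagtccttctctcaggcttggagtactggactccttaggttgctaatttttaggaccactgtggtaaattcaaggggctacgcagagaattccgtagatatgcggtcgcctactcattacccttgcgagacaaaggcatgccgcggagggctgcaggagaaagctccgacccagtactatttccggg
Mrpl22 (chr10:42845660-42845959, plus strand): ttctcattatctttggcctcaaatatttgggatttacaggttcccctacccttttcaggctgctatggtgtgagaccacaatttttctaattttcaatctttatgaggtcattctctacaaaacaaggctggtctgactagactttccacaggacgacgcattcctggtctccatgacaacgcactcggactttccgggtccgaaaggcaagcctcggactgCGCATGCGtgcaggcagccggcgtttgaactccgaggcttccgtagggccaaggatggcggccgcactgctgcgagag
Mrps18b (chr20:2842756-2843055, plus strand): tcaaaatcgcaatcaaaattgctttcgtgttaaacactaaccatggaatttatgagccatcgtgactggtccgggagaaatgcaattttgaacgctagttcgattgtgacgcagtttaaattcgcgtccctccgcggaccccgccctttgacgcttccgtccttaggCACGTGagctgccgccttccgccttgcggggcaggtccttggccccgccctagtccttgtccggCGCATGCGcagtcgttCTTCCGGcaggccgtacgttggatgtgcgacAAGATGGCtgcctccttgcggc
Mrpl36 (chr1:31795072-31795371, minus strand): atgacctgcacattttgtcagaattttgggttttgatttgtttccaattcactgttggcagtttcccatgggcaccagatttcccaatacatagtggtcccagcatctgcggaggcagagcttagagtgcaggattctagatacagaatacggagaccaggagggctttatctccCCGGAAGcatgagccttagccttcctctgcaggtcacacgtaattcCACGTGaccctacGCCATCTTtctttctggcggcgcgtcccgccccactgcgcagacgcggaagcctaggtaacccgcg
The Mrps18a and Mrps27 windows each held an ETS core and a YY1 core, and the Mrps18b window held all 4 motifs. The Mrpl22 window held only the NRF1 core, the Mrpl36 window held the ETS, YY1 and E-box letters, and the Mrpl12 window, although Mrpl12 moved like Mrps18a and Mrps27, held none of the 4.

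Among the 61 windows the YY1 core was present in 15 (24.6%), beside 5.30% of the windows of 10916 tested genes and 3.92% of those of 19005 protein-coding genes. It began a median of 16 bases after the annotated start. The ETS core was present in 21 members (34.4%), beside 17.3% of tested and 11.2% of protein-coding genes, and the NRF1 core in 6 members (9.84%), beside 3.56% and 2.24%. The E-box was present in 9.84% of members, 9.30% of tested and 7.27% of protein-coding genes. In all, 34 of 61 members (55.7%) held at least 1 of the NRF1, ETS and YY1 cores, beside 23.8% of tested genes. TATAAA between 40 and 15 bases before the start was present in 0 of 61 members and in 0.989% of tested genes. The ETS and YY1 cores can share letters where they adjoin, which was the case in 0 of 61 members and in 1 tested gene. These are matches of letters, described without a test.

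**Figure D1:**
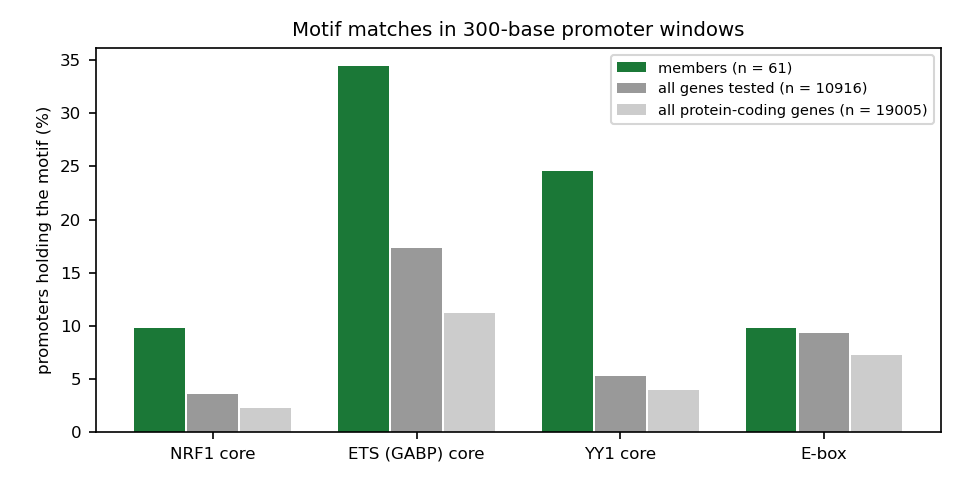
Share of RefSeq promoter windows (y axis, percent) that hold each of 4 motifs (x axis), for members (green), all tested genes (dark grey) and all protein-coding genes (light grey). The YY1 core was present in 24.6% of members and 5.30% of tested genes, while the E-box shares were 9.84% and 9.30%.

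Motif matches were also counted by response group. Of the 14 members with a window that were higher with PE under both siRNAs, 7 held the YY1 core and 4 the ETS core, and of the 29 that passed in neither PE comparison, 5 held the YY1 core and 12 the ETS core. Of the 21 with a window that were lower with siSlc25a26 in both PE states, 8 held the YY1 core and 8 the ETS core, beside 5 and 10 of the 28 that passed in neither siSlc25a26 comparison. The NRF1 core was held by 0 of the 14 and 0 of the 21, beside 3 of the 29 and 3 of the 28 that passed in neither comparison, and the E-box by 0 of the 14 and 1 of the 21, beside 4 of the 29 and 3 of the 28. The counts were not tested. A start of another protein-coding gene on the opposite strand lay within 1000 bases upstream of 17 of 61 members (27.9%), beside 10.7% of tested genes and 6.97% of protein-coding genes. Mrps11 and Mrpl46, a small and a large subunit gene, were such a pair, with 234 bases between their starts. Mrpl49 faced the cytosolic ribosomal gene Fau and Mrpl47 faced the complex I subunit gene Ndufb5.

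Levels between genes were compared only in FPKM, which divides by gene length. The median of the members' mean FPKM over 12 libraries was 48.6, beside 8.29 for all 14111 genes tested in any comparison. Of the 76 members, 61 lay between 20 and 100 FPKM, 7 above and 8 below. Most members were therefore within a narrow band, as the plot of levels shows.

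**Figure D2:**
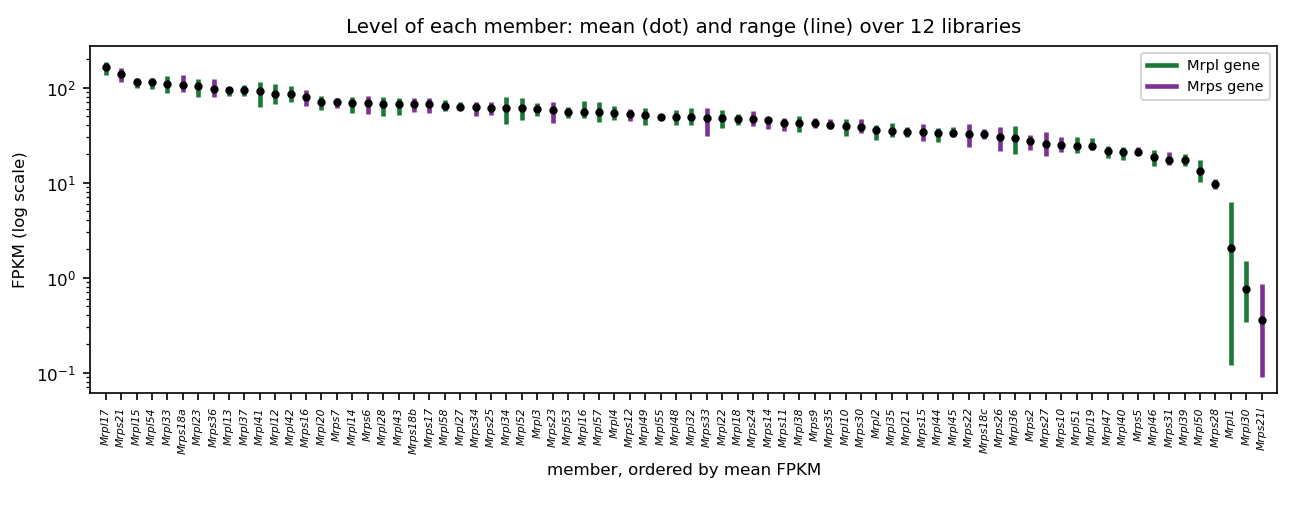
FPKM (y axis, log scale) of each of 76 members (x axis, ordered by mean), with the mean as a dot and the lowest to highest of 12 libraries as a line. Mrpl17 was highest at 165.0 FPKM, 61 members lay between 20 and 100 FPKM, and Mrpl1, Mrpl30 and Mrps21l lay at or below 2.03 FPKM.

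Mrpl17 was highest at 165.0 FPKM on average (146.6 ± 10.3 in siNeg, 161.5 ± 10.5 in siNeg.PE, 171.6 ± 5.92 in siSlc25a26 and 180.5 ± 6.88 in siSlc25a26.PE, SD, n = 3). Mrps21, a small subunit protein of bacterial descent, followed at 137.3 FPKM and Mrpl15, at the large subunit, at 114.3 FPKM. In siNeg the first pair in this order did not differ beyond the spread, since Mrps21 was at 148.7 ± 11.4 FPKM (SD, n = 3). By CPM, which ignores length, Mrps21 ranked 24th and Mrpl17 stayed first, and the Spearman correlation of the FPKM and CPM levels over 76 members was 0.64. At the low end, Mrps28 was at 9.57 FPKM, Mrpl1 at 2.03, Mrpl30 at 0.761 and Mrps21l at 0.360 FPKM. Mrps21l had 1.00 to 9.03 counts per library and was the only member that did not pass the filter on low counts, so 75 members were tested in every comparison. RefSeq names 40 pseudogenes of 23 members, among them 9 of Mrpl30 and 2 of Mrpl1, and the estimated counts of 22 members were not whole numbers in at least 1 library, and how reads of near-identical copies were assigned is not given in the sources used here. Values of Mrpl1 and Mrpl30 are therefore uncertain.

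Summed over the members, levels differed little between groups. The sum was 3665 ± 170.6 CPM in siNeg, 3974 ± 237.3 in siNeg.PE, 3411 ± 51.9 in siSlc25a26 and 3636 ± 205.5 in siSlc25a26.PE (SD, n = 3) after TMM normalization over 12 libraries. As a plain share of the library's counts, the members took 0.357% to 0.393% in siNeg, 0.378% to 0.411% in siNeg.PE, 0.353% to 0.364% in siSlc25a26 and 0.324% to 0.353% in siSlc25a26.PE. With PE the sum in the siSlc25a26 groups was thus higher in CPM and lower as a plain share, and the TMM factors were 1.039 to 1.053 in siSlc25a26 and 0.923 to 0.947 in siSlc25a26.PE. The ratio of summed large to small subunit CPM lay between 2.13 and 2.25 in all libraries. By group it was 2.188 to 2.249 in siNeg and 2.156 to 2.2 in siNeg.PE. It was 2.17 to 2.186 in siSlc25a26 and 2.128 to 2.146 in siSlc25a26.PE, and these differences were not tested.

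**Figure D3:**
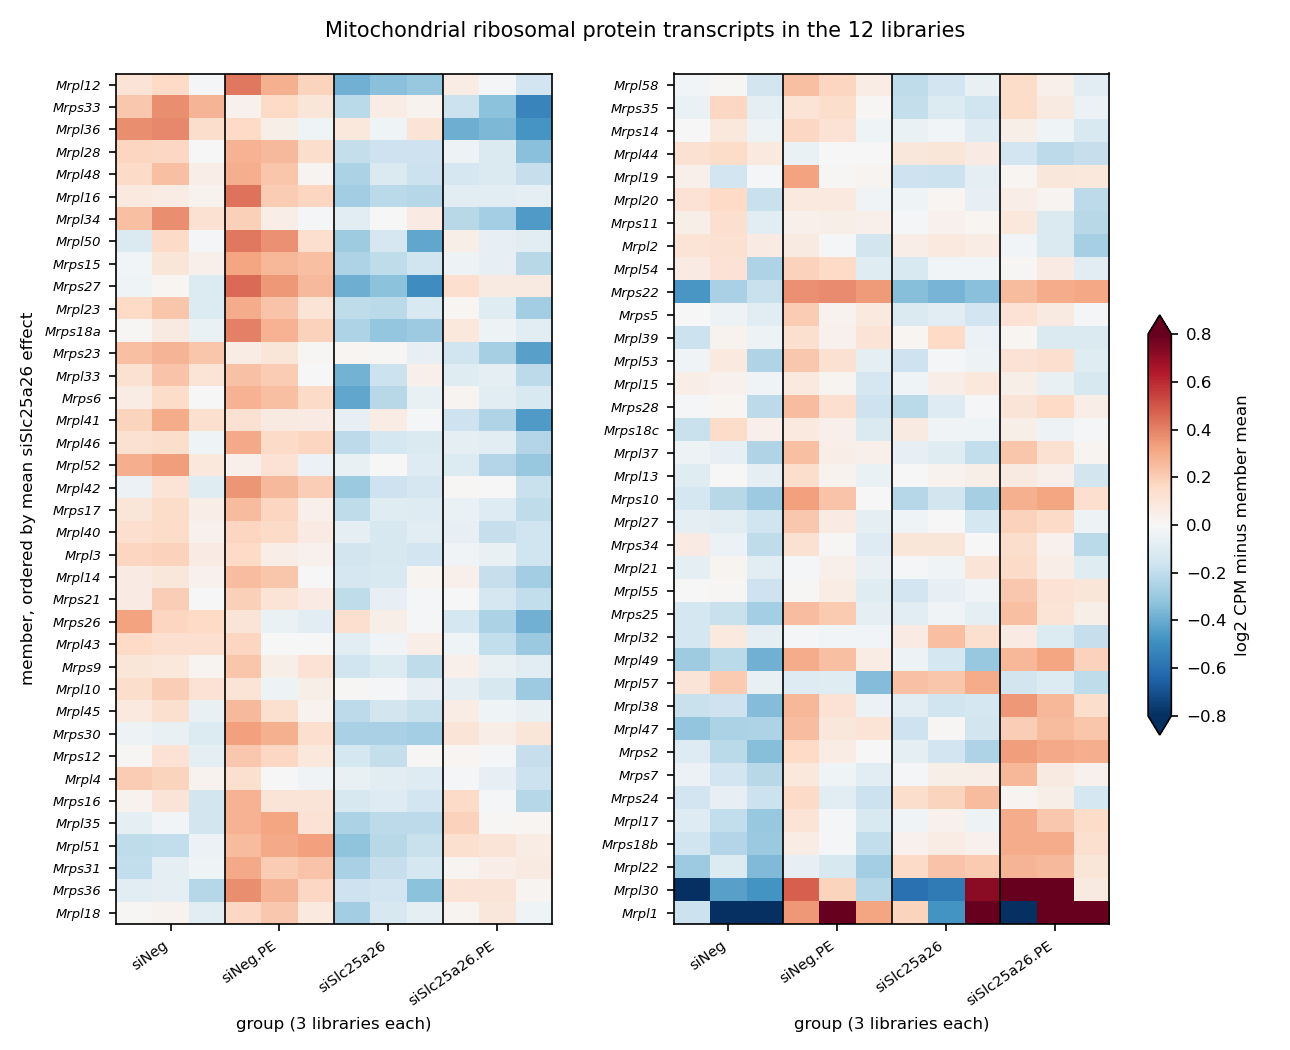
log2 CPM of the 75 tested members (rows, in 2 panels) in 12 libraries (columns, 3 per group), each minus the member's mean over all libraries; red is higher and blue lower, and colours end at 0.8. Members are ordered by the mean of their siSlc25a26 effects, with Mrpl12 first and the low members Mrpl30 and Mrpl1 last.

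PE in siNeg cells was compared first, to ask what the hypertrophic stimulus did to mitoribosome transcripts. Of 75 members, 22 rose and 5 fell at an adjusted p under 0.05, where 25.2% of all 13719 tested genes rose and 24.3% fell. The share that rose (22 of 75) was near that of all genes, and the share that fell (5 of 75) stood below it, a difference that was not tested. At a fold change above 1.5 as well, Mrps22 and Mrpl1 rose and 0 members fell, beside 12.4% and 8.24% of all genes. Without siNeg replicate 1, Mrps22 rose by 0.58, just under 1.5-fold, and still passed the test. The median log2 fold change was 0.10 over the members and 0.00016 over all tested genes, and it was 0.057 without siNeg.PE replicate 1 and 0.062 without siNeg replicate 3. On the FPKM scale, where values are not corrected by TMM, 18 members rose and 11 fell. The median on log2(FPKM + 1) was 0.068 over the members and -0.032 over all genes. The share of all genes that passed on this scale was not counted.

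Mrps22, a small subunit protein without a bacterial counterpart and a human cardiomyopathy gene (gene ID 683519), had the smallest p of all members. It was at 26.0, 30.0 and 31.7 CPM in siNeg and at 46.2, 46.6 and 45.3 CPM in siNeg.PE. The groups stood well apart (log2 fold change 0.65 ± 0.08 SE, adjusted p = 0.000416). Mrpl49, a large subunit protein without a bacterial counterpart, was at 18.2, 19.0 and 16.9 CPM in siNeg and at 27.1, 26.1 and 23.0 CPM in siNeg.PE (log2 fold change 0.48, adjusted p = 0.00263). Mrpl51 went from 42.4, 42.6 and 47.2 CPM to 58.3, 60.2 and 61.1 CPM (log2 fold change 0.43, adjusted p = 0.00115) and Mrpl47, at the large subunit's surface, rose by 0.41 (adjusted p = 0.00199). All these groups were without overlap, which the rule for named members requires. In this comparison 28 of 75 members were higher without overlap, beside 29.4% of all tested genes. Mrps36, which despite its name belongs to the 2-oxoglutarate dehydrogenase complex, was at 76.7, 77.3 and 69.7 CPM in siNeg and at 105.9, 98.8 and 91.8 CPM in siNeg.PE (log2 fold change 0.39, adjusted p = 0.00233).

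Mrpl1 had the highest fitted change of all members, 2.45 ± 0.71 SE on the log2 scale (adjusted p = 0.0211), on 36.5, 6.55 and 6.51 counts in siNeg and 47.2, 167.5 and 46.3 counts in siNeg.PE. The call was lost without siNeg replicate 2 or without siNeg.PE replicate 2. Its counts were not whole in any library, so the value is uncertain.

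The members that fell with PE were Mrpl57 (-0.28), Mrpl36 (-0.26), Mrps26 (-0.24), Mrps33 and Mrps23 (both -0.20), with adjusted p of 0.0135 to 0.0447. Mrps23, a small subunit protein, was at 74.3, 75.9 and 73.6 CPM in siNeg and at 65.8, 67.3 and 63.5 CPM in siNeg.PE, without overlap. Lower levels without overlap were found for 7 of 75 members, beside 29.1% of all tested genes. Mrpl36, a small zinc-binding protein of the large subunit, was at 29.5, 29.8 and 25.1 CPM in siNeg and at 25.5, 23.5 and 22.3 CPM in siNeg.PE, where the groups overlapped slightly. The calls varied with the libraries included, since 1 to 6 members fell and 12 to 25 rose when each library was left out. The number that fell was 1 without siNeg replicate 1 or 2 or siNeg.PE replicate 2 or 3, and 3 without siNeg.PE replicate 1. Passing members numbered 27 in all, 16 without siNeg replicate 2, 17 without siNeg.PE replicate 1 and 13 without siNeg.PE replicate 2.

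By subunit, 14 of 48 large subunit members rose and 2 fell, and 7 of 26 small subunit members rose and 3 fell. All 3 of the Mrps-named genes whose proteins lie outside the small subunit, Mrps18a (0.27) and Mrps30 (0.31) of the large subunit and Mrps36, rose. Mrpl58, a relative of peptide release factors, rose by 0.20 on the log2 scale (adjusted p = 0.0456), a call lost whenever a library other than siNeg.PE replicate 3 was left out. Of 29 members listed as without a bacterial counterpart 12 rose and 4 fell, and of 41 listed with one 8 rose and 1 fell. Some members, among them Mrps18a and Mrps18b, were in neither list. A list of 9 members linked to human mitochondrial disease was used, called disease-linked here, which need not be complete. Of these, Mrps22, Mrps2 (log2 fold change 0.27, adjusted p = 0.0178) and Mrpl12 (0.20, adjusted p = 0.0489) rose. Mrpl3, Mrpl44, Mrps7, Mrps14, Mrps16 and Mrps34 had changes of -0.15 to 0.15 that did not pass. The Mrpl12 call was lost in 5 of the 6 fits that leave out a library, all but the fit without siNeg.PE replicate 3, and the Mrps2 call without siNeg replicate 2, siNeg.PE replicate 1 or siNeg.PE replicate 2.

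PE in siSlc25a26 cells, in a separate set of 6 libraries, gave calls that overlapped with those in siNeg cells. In the TMM-normalized fit 27 of 75 members rose and 9 fell, where 26.4% of 13776 tested genes rose and 26.0% fell, and the median log2 fold change was 0.11 (all genes -0.0036). At a fold change above 1.5 as well, Mrps22 rose and 0 members fell, beside 10.1% and 10.4% of all genes. On both FPKM scales Mrps22 rose by less than 1.5-fold (0.45 and 0.47 on the log2 scale) and the members past 1.5-fold were Mrpl36 and Mrpl57, which fell. The split of all calls also turned with the scale. On log2(FPKM + 1), 8 members rose and 26 fell, with a median of -0.070 where the median of all genes was -0.12. Relative to the median of all genes the members stood 0.11 higher in the main fit and 0.052 higher on the FPKM scale, so they stood above other genes on both scales while the sign of their own median differed.

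Mrps22 was at 28.3, 27.7 and 28.4 CPM in siSlc25a26 and at 42.7, 44.0 and 44.4 CPM in siSlc25a26.PE (log2 fold change 0.64 ± 0.06 SE, adjusted p = 2.4e-05), close in size to its change in siNeg cells. Mrps27, a small subunit protein with pentatricopeptide repeats, was at 33.4, 34.9 and 31.0 CPM and then at 48.0, 46.1 and 46.0 CPM (0.51, adjusted p = 0.000198). Mrps2, a small subunit protein of bacterial descent, was at 56.2, 53.5 and 50.1 CPM and then at 74.9, 73.2 and 72.7 CPM (0.47, adjusted p = 0.000167). The groups of all 3 members were without overlap, which the rule for named members requires. In this comparison 28 of 75 members were higher without overlap, beside 29.4% of all tested genes. Mrps10, Mrpl49 and Mrpl38 rose by 0.47, 0.42 and 0.39 on the log2 scale. On the other side Mrpl36 was at 24.2, 22.2 and 24.6 CPM in siSlc25a26 and at 17.4, 17.8 and 16.5 CPM in siSlc25a26.PE (-0.45, adjusted p = 0.000851), and Mrpl57, a large subunit protein without a bacterial counterpart, was at 39.2, 38.9 and 41.1 CPM and then at 30.1, 31.0 and 28.9 CPM (-0.40, adjusted p = 0.000574). Mrps26, Mrpl34, Mrpl41 and Mrps23 fell by 0.30, 0.30, 0.27 and 0.26 on the log2 scale, and the Mrpl41 call was lost without siSlc25a26 replicate 2.

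Of the disease-linked members, Mrpl44, an RNase III-like protein of the large subunit, fell (-0.26, adjusted p = 0.00457), from 38.0, 38.1 and 37.4 CPM to 32.0, 30.9 and 31.4 CPM. Mrps22, Mrps2 and Mrpl12 rose, the last by 0.32, and its call was lost on the FPKM scale, as were those of Mrps18a (0.28), Mrps18b (0.21), Mrps36 (0.30), Mrpl17 (0.24) and Mrps28 (0.22). Mrps30 rose by 0.36 on the log2 scale (adjusted p = 0.000521). Across subunits, 16 of 48 large subunit members rose and 5 fell, and 10 of 26 small subunit members rose and 4 fell. Leaving out each library in turn, 24 to 40 members passed, and those that rose numbered 15 without siSlc25a26 replicate 1 and 17 without siSlc25a26.PE replicate 2.

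The PE comparisons share no library. The 5 members that fell with PE in siNeg were all among the 9 that fell in siSlc25a26 cells (100.0% and 55.6%), and 18 of the 22 that rose were among the 27 (81.8% and 66.7%). No member passed in opposite directions. The overlap of calls over all tested genes was not counted, so it cannot be called particular to the members. The fitted changes had the same sign in 63 of 75 members, with a Spearman correlation of 0.90 and a Pearson correlation of 0.64 over members, given as a description because members share libraries and depth and Mrpl1 is far from the rest.

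**Figure D4:**
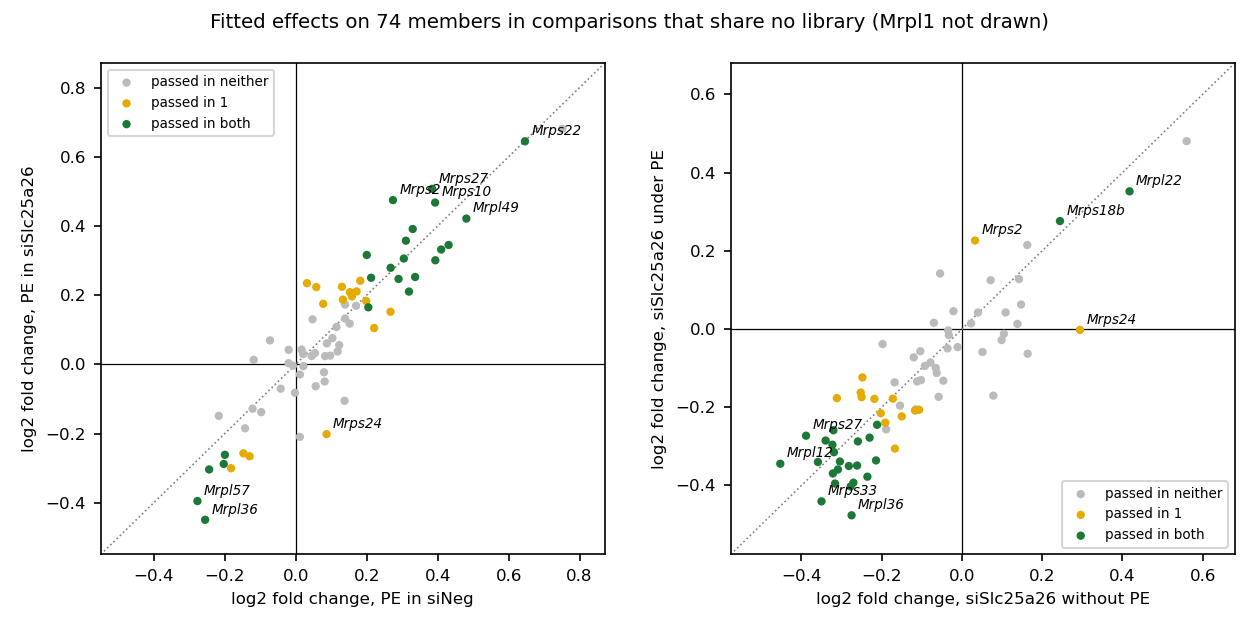
Fitted log2 fold changes of the tested members other than Mrpl1, for PE in siNeg against PE in siSlc25a26 (left) and for siSlc25a26 without PE against siSlc25a26 under PE (right). Colours give the number of the plotted comparisons in which a member passed, and the dotted line marks equal change. Mrps22 lies at 0.65 and 0.64 on the left, and Mrpl12 at -0.45 and -0.34 on the right.

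In the comparison of siSlc25a26 with siNeg without PE, 30 of 75 members were lower and 3 higher, where 21.7% of all 13829 tested genes were lower and 23.3% higher. The share that was lower (30 of 75) stood above that of all genes and the share that was higher (3 of 75) below it, which was not tested. At a fold change above 1.5 as well, 0 members were lower and 0 higher, beside 7.20% and 8.92% of all genes. An unadjusted p under 0.05 was reached by 40 members, but the share of all genes that reached it was not counted. The median log2 fold change was -0.12, beside 0.015 over all genes. On log2(FPKM + 1) the split was 22 lower and 10 higher with a median of -0.057, beside 0.051 over all genes, whose split was not counted.

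Mrpl12, the stalk protein of the large subunit that recruits translation factors (gene ID 303746), was at 134.6, 139.3 and 123.7 CPM in siNeg and at 95.7, 99.0 and 101.1 CPM in siSlc25a26. This was the lowest fitted change of all members (-0.45 ± 0.06 SE, adjusted p = 0.000392), and the groups did not overlap. Lower levels without overlap were found for 34 of 75 members, beside 25.3% of all tested genes. Mrps27 (gene ID 361883) was at 42.8, 44.2 and 40.6 CPM in siNeg and at 33.4, 34.9 and 31.0 CPM in siSlc25a26 (-0.39, adjusted p = 0.00182). Mrpl48, a large subunit protein without a bacterial counterpart, was at 65.1, 69.0 and 60.7 CPM and at 49.0, 53.8 and 51.8 CPM (-0.36, adjusted p = 0.00252). Mrps33, Mrpl33 and Mrps6 were lower by 0.35, 0.34 and 0.32 on the log2 scale, with adjusted p of 0.0107, 0.0226 and 0.018. The Mrpl33 and Mrps6 calls were lost without siNeg replicate 2, siSlc25a26 replicate 1 or siSlc25a26 replicate 2, and the Mrps33 call on the FPKM scale.

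The 3 members that passed as higher moved against the 30 that passed as lower. In all, 19 of 75 members had a fitted change above 0. Mrpl22, which lines the exit tunnel of the large subunit (gene ID 287302), was at 25.2, 28.7 and 24.2 CPM in siNeg and at 34.4, 36.3 and 35.7 CPM in siSlc25a26 (0.42 ± 0.08 SE, adjusted p = 0.00313). Mrps24, a small subunit protein of bacterial descent, was at 29.2, 31.2 and 28.9 CPM and at 35.9, 36.8 and 38.7 CPM (0.29, adjusted p = 0.00679). Mrps18b was at 59.1, 56.1 and 53.7 CPM and at 67.6, 68.7 and 67.5 CPM (0.24, adjusted p = 0.00634). None of the 3 had overlapping groups, which the rule for named members requires. In this comparison 9 of 75 members were higher without overlap, beside 31.6% of all tested genes.

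The 3 Mrps18 genes, paralogs of 1 bacterial protein, did not move alike. Mrps18a, whose product sits in the large subunit, was lower in siSlc25a26 at 65.8, 62.9 and 63.9 CPM than in siNeg at 78.7, 82.0 and 75.2 CPM (-0.32, adjusted p = 0.00169), while Mrps18b was higher. Mrps18c was at 20.8, 26.1 and 24.3 CPM in siNeg and at 24.8, 23.1 and 23.0 CPM in siSlc25a26, which overlapped (-0.03 ± 0.09 SE, adjusted p = 0.803).

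By subunit, 22 of 48 large subunit members were lower and 1 higher, and 8 of 26 small subunit members were lower and 2 higher. Of 41 members listed with a bacterial counterpart 16 were lower and 2 higher, and of 29 listed without one 13 were lower and 0 higher. Neither list holds Mrps18a, which was lower, or Mrps18b, which was higher. Of the disease-linked members, Mrpl12 and Mrpl3 (-0.31, adjusted p = 0.00148) were lower and the others lay between -0.15 and 0.14 without passing. Mrps30, which lies in the large subunit, was lower at 43.7, 43.6 and 43.4 CPM than at 50.7, 50.1 and 48.4 CPM in siNeg (-0.22, adjusted p = 0.00873). Leaving out each library, 18 to 40 members were lower and 3 to 6 higher, with 6 higher without siNeg replicate 1 and 18 lower without siNeg replicate 2 or without siSlc25a26 replicate 1. Passing members numbered 33 in all and 21 without siNeg replicate 2, as without siSlc25a26 replicate 1.

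Under PE, the libraries labelled siSlc25a26.PE had 26 members lower and 3 higher than siNeg.PE, where 20.1% of all 13671 tested genes were lower and 20.1% higher. At a fold change above 1.5 as well, 0 members were lower and 0 higher, beside 8.10% and 7.71% of all genes. The median log2 fold change was -0.17, beside -0.0028 over all genes. An unadjusted p under 0.05 was reached by 38 members, and the share of all genes was again not counted. On log2(FPKM + 1) 42 members were lower and 3 higher. There the median was -0.22 over the members and -0.048 over all genes, and the share of all genes passing was not counted. These directions came from libraries in which Slc25a26 RNA did not differ.

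Mrpl36 (gene ID 364656) was lowest, at 25.5, 23.5 and 22.3 CPM in siNeg.PE and at 17.4, 17.8 and 16.5 CPM in siSlc25a26.PE (-0.48 ± 0.09 SE, adjusted p = 0.00241). Mrps33, a small subunit protein without a bacterial counterpart, was at 32.5, 35.3 and 33.9 CPM and at 28.2, 25.3 and 22.0 CPM (-0.44, adjusted p = 0.00497). Mrps15, which binds the small subunit's RNA, was at 89.5, 86.6 and 85.0 CPM and at 69.9, 68.6 and 61.7 CPM (-0.39, adjusted p = 0.00194). No groups of these 3 members overlapped, which the rule for named members requires. In this comparison 35 of 75 members were lower without overlap, beside 25.1% of all tested genes. Mrpl34, Mrpl28 and Mrpl41 of the large subunit were lower by 0.40, 0.40 and 0.38 on the log2 scale. Mrpl12 was at 167.4, 152.2 and 141.4 CPM and at 130.1, 123.6 and 112.2 CPM (-0.34, adjusted p = 0.0105), Mrps27 was lower by 0.27 (adjusted p = 0.0181) and Mrps18a by 0.31 (adjusted p = 0.013), the last call being lost without siSlc25a26.PE replicate 2.

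Mrpl22 was again higher, at 29.6, 28.3 and 25.6 CPM in siNeg.PE and at 37.4, 37.0 and 33.0 CPM in siSlc25a26.PE (0.35, adjusted p = 0.00996). Mrps18b was at 68.8, 65.7 and 57.6 CPM and at 81.2, 81.0 and 72.0 CPM (0.28, adjusted p = 0.0316) and Mrps2 at 66.3, 61.8 and 59.3 CPM and at 74.9, 73.2 and 72.7 CPM (0.23, adjusted p = 0.0278). Their groups did not overlap, but the Mrps18b and Mrps2 calls were each lost when siNeg.PE replicate 2 or 3, or siSlc25a26.PE replicate 1 or 2, was left out. Higher levels without overlap were found for 5 of 75 members, beside 26.9% of all tested genes. Mrps18c stayed at 24.8, 24.2 and 21.7 CPM against 24.3, 22.9 and 23.3 CPM (-0.02 ± 0.08 SE).

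Large subunit members were lower in 17 and higher in 1 of 48, and small subunit members were lower in 8 and higher in 2 of 26. Of the 9 members listed as disease-linked 1 was lower, Mrpl12, and 1 higher, Mrps2. Mrps30 (-0.18, adjusted p = 0.0858) and Mrpl58 (-0.13, adjusted p = 0.229) did not pass, and Mrps36 was lower by 0.21 on the log2 scale (adjusted p = 0.0484), a call lost whenever a library other than siNeg.PE replicate 3 was left out. Passing members numbered 29 in all, 16 without siNeg.PE replicate 2 and 13 without siSlc25a26.PE replicate 2. Lower members numbered 16 and 15 without siNeg.PE replicate 1 and 2 and 12 without siSlc25a26.PE replicate 2, and 1 member was higher without siNeg.PE replicate 2 or 3 or siSlc25a26.PE replicate 1 or 2.

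**Figure D5:**
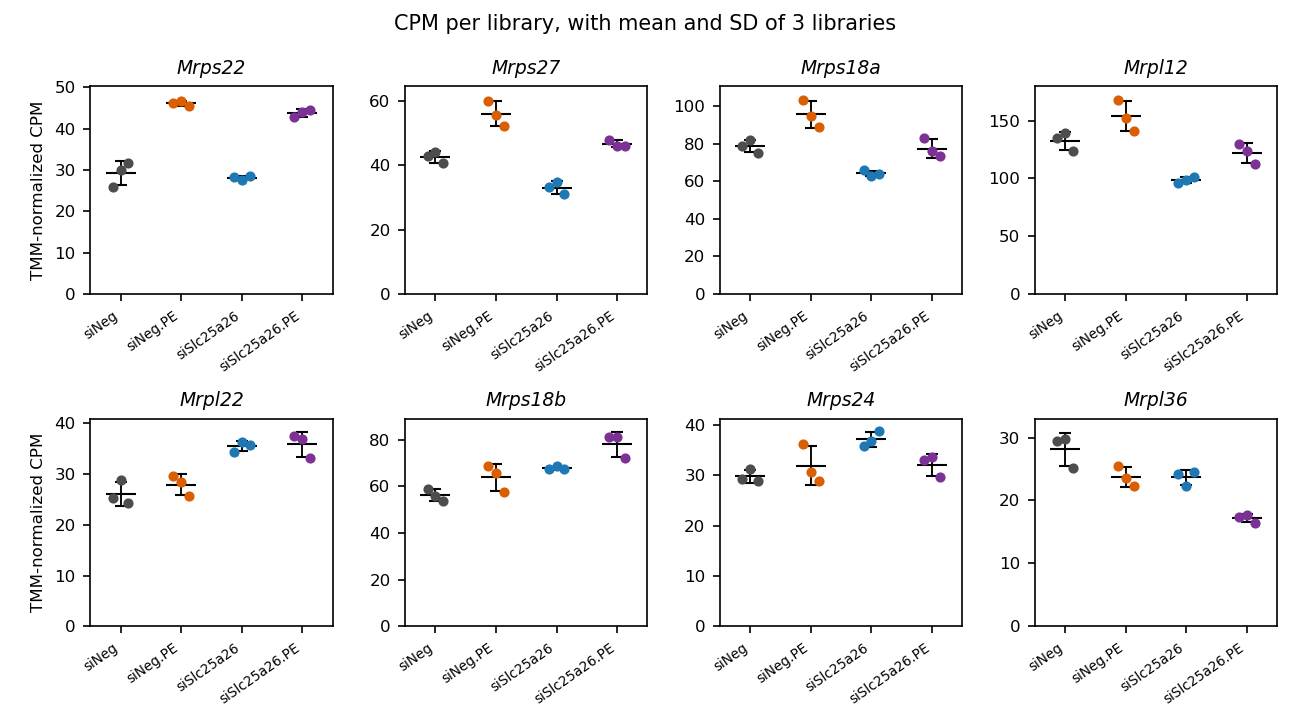
TMM-normalized CPM (y axes, from 0) of 8 members in the 4 groups, with each library as a point, the mean as a bar and the SD of 3 libraries as the error bar. Mrps22 is higher in both PE groups, Mrpl12 is lower in siSlc25a26 at 98.6 CPM than in siNeg at 132.5 CPM, Mrpl22 is higher in both siSlc25a26 groups, and Mrpl36 is lowest in siSlc25a26.PE at 17.2 CPM.

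The siSlc25a26 comparisons share no library. Of the 30 members lower without PE and the 26 lower under PE, 22 were in both lists (73.3% and 84.6%). Mrpl22 and Mrps18b were in both lists of 3 higher members. Here too the overlap over all tested genes was not counted, so it cannot be called particular to the members. Signs were the same in 65 of 75 members, with a Spearman correlation of 0.81 and a Pearson correlation of 0.47 over members, again as a description only.

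Set beside each other, the 4 comparisons placed 5 members in the group that was higher with PE under both siRNAs and lower with siSlc25a26 in both PE states, namely Mrpl12, Mrpl16, Mrpl50, Mrps18a and Mrps27. The Mrpl12 call for PE in siNeg was lost in 5 of the 6 fits that leave out a library. For PE in siSlc25a26, the Mrpl12 and Mrps18a calls were lost on the FPKM scale. Another 3 members, Mrpl36, Mrps23 and Mrps33, were lower in all 4 comparisons. Only 1 member fell with PE in siNeg when siNeg replicate 1 or 2 or siNeg.PE replicate 2 or 3 was left out. The group of 3 thus depends on the libraries included. A further 10 members were lower with siSlc25a26 in both PE states and passed in neither PE comparison, among them Mrpl28, Mrpl33, Mrpl48, Mrps6 and Mrps21, and 8 were higher with PE under both siRNAs and passed in neither siSlc25a26 comparison, among them Mrps22, Mrpl38, Mrpl47, Mrpl49 and Mrps10. There were 17 members that passed in none of the 4, including Mrpl15, Mrps7, Mrps14, Mrps16, Mrps18c and Mrps34. The Mrps21 changes (-0.21 without and -0.24 under PE) each lost their call in 4 of the 6 fits that leave out a library, namely without siNeg replicate 1 or 2 or siSlc25a26 replicate 1 or 2, and without siNeg.PE replicate 1 or 2 or siSlc25a26.PE replicate 2 or 3. Mrpl16 and Mrpl50 lie outside the rule for named genes and are named for this pattern after their values were seen. Each pair of a PE and a siSlc25a26 comparison shares a group of libraries, so these groupings describe the members and were not tested. The same patterns were not counted over all tested genes.

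The test of whether PE acted differently in siSlc25a26 than in siNeg cells used all 12 libraries. Slc25a26 itself rose with PE by 1.69 in siNeg and by 2.77 in siSlc25a26 cells on the log2 scale. That difference was 1.06 (edgeR, adjusted p = 0.000466), and Slc25a26 RNA did not differ between the PE groups. The test therefore did not compare PE at a lower Slc25a26 level with PE at the control level. With edgeR, 0 of 75 members passed in either direction, where 5.73% of all 14097 tested genes had a lower and 5.48% a higher PE effect in siSlc25a26 cells. An unadjusted p under 0.05 was reached by 3 members, a count without the share over all genes. DESeq2 and limma-voom also called 0 members. The median difference was -0.050 over the members and -0.045 over all genes, and the member median ran from -0.090 to -0.0028 when each library was left out in turn. On log2(FPKM + 1), limma called 6 members, Mrpl32, Mrpl36, Mrpl39, Mrpl44, Mrps15 and Mrps24, all with the lower PE effect in siSlc25a26 cells. On that scale the median difference was -0.16 over the members and -0.11 over all genes. The share of all genes called there was not counted.

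Mrps24 had the smallest p in the edgeR test, with a difference of -0.31 ± 0.12 SE on the log2 scale (adjusted p = 0.114). It was at 29.2, 31.2 and 28.9 CPM in siNeg, 36.2, 30.6 and 28.9 in siNeg.PE, 35.9, 36.8 and 38.7 in siSlc25a26 and 33.0, 33.7 and 29.6 in siSlc25a26.PE. PE thus left the siNeg groups overlapping and lowered Mrps24 in siSlc25a26 cells by 0.20 (adjusted p = 0.0345), but the difference between these effects did not pass. The differences of Mrpl39, Mrpl32, Mrpl36 and Mrpl44 were -0.27, -0.24, -0.22 and -0.13, with adjusted p of 0.172 to 0.263, and that of Mrpl1 was -2.13 ± 1.06 SE (adjusted p = 0.227).

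Other genes of mitochondrial protein synthesis were read from lists. Of 5 mitoribosome proteins under other symbols, Ptcd3 (0.63) and Dap3 (0.34), both of the small subunit, rose with PE in siNeg, and rose by 0.57 and 0.41 in siSlc25a26 cells. Dap3 was the only one of the 5 to pass with siSlc25a26, higher by 0.21 under PE (adjusted p = 0.0428). Of 26 tested assembly factors, 4 rose and 6 fell with PE in siNeg and 3 rose and 8 fell in siSlc25a26 cells. Among these Tfb1m, a methyltransferase of the small subunit RNA, rose by 0.61 and 0.58, and Ybey, an endoribonuclease, fell by 0.54 and 0.70 on the log2 scale. With siSlc25a26, 5 were lower and 0 higher without PE and 8 lower and 1 higher under PE. The largest changes without PE were those of Ybey (-0.34), Rcc1l (-0.33) and Trub2 (-0.30), and under PE those of the rRNA methyltransferases Mettl15 (-0.58) and Nsun4 (-0.54) and of Ybey (-0.51), all lower. The factor that was higher under PE was Mettl17 (0.33, adjusted p = 0.0495). Other rRNA methyltransferases of the list, Mrm1, Mrm2, Mrm3 and Tfb1m, did not pass in either comparison and lay between -0.12 and 0.23.

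Of 15 translation factors, 8 rose and 2 fell with PE in siNeg, and likewise 8 rose and 3 fell in siSlc25a26 cells. The elongation factor Gfm1 rose by 0.74 and 0.79, from 99.9 ± 5.88 to 168.5 ± 1.52 CPM and from 86.6 ± 2.29 to 148.5 ± 4.94 CPM (SD, n = 3). The elongation factor Guf1 rose by 1.02 and 0.56, and its difference of -0.48 passed in the fit of all 12 libraries (adjusted p = 0.0428). The initiation factor Mtif2 rose by 0.89 and 0.53. With siSlc25a26, 5 were lower without PE and 6 under PE and 0 were higher. Lrpprc, which stabilizes mitochondrial messengers, was at 143.3 ± 4.06 CPM in siNeg and 104.5 ± 4.10 CPM in siSlc25a26 (-0.48, adjusted p = 9.34e-05), the recycling factor Mrrf was lower by 0.50, and the elongation factor Tufm by 0.33 on the log2 scale.

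Of 10 genes of mitochondrial DNA maintenance and transcription, 3 rose and 2 fell with PE in siNeg, 1 rose and 3 fell in siSlc25a26 cells, 1 was lower and 1 higher with siSlc25a26 without PE, and 2 were lower under PE. Polrmt, the mitochondrial RNA polymerase, fell with PE by 0.73 and 0.75 on the log2 scale. Of 12 regulators of nuclear genes for mitochondrial proteins, 3 rose and 3 fell with PE in siNeg and 5 rose and 3 fell in siSlc25a26 cells, while 3 were higher and 2 lower with siSlc25a26 without PE and 4 higher and 2 lower under PE. Gabpa, which encodes the DNA-binding subunit of GABP, rose with PE by 0.55 and 0.31, Nrf1 fell by 0.24 and 0.22, and Yy1 was higher with siSlc25a26 by 0.30 and 0.24. The coactivator Ppargc1a had a difference between PE effects of -0.83 (adjusted p = 0.00805) and Ppargc1b of 0.46 (adjusted p = 0.00518).

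Markers of cell types in the cultures also differed between the groups, and the markers of a type did not all move alike. In bulk RNA, fewer cells of a type and less RNA of the marker genes per cell cannot be told apart. With PE in siNeg, 5 of 10 cardiomyocyte markers rose and 1 fell, 5 of 10 fibroblast markers fell and 2 rose, and their summed levels were 31065 to 33258 and 25163 to 27924 CPM in siNeg and 42517 to 43764 and 13450 to 14017 CPM in siNeg.PE. The corresponding sums were 30500 to 34872 and 14731 to 16730 CPM in siSlc25a26 and 47887 to 51682 and 10491 to 11632 CPM in siSlc25a26.PE. With PE in siSlc25a26 cells 8 cardiomyocyte markers rose and 1 fell, and 1 fibroblast marker rose and 5 fell. In each siSlc25a26 comparison 7 fibroblast markers were lower and 1 higher, while 4 cardiomyocyte markers were lower and 1 higher without PE and 3 lower and 2 higher under PE. Of 6 proliferation markers, 5 rose with PE in siNeg and 0 passed with PE in siSlc25a26 cells, 3 were lower with siSlc25a26 without PE and 6 under PE. Of 6 smooth muscle and pericyte markers, 5 were lower with siSlc25a26 without PE, with sums of 2337 to 2549 CPM in siNeg, 1369 to 1706 in siNeg.PE, 1347 to 1547 in siSlc25a26 and 1791 to 1873 in siSlc25a26.PE. Immune markers summed to 110.5 to 133.2 CPM in siNeg, 61.4 to 70.6 in siNeg.PE, 59.7 to 69.0 in siSlc25a26 and 41.5 to 49.2 in siSlc25a26.PE. Of 8 tested, 6 fell with PE in siNeg and 5 were lower with siSlc25a26 without PE, and 2 passed as lower with PE in siSlc25a26 cells and 2 of 7 with siSlc25a26 under PE. Endothelial markers summed to 22.5 to 29.9 CPM over all libraries, and 1 or 2 of the 10 immune markers were at 0 throughout a group. The part of these cell types, and of the interferon-induced genes, in the member results was not tested.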

How the data were processed

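RNA of NRVMs was sequenced by BGI in 12 libraries, 3 for each of 4 groups, and groups and replicate numbers were taken from the labels. The authors deposited estimated counts per gene, of which 20.8% to 21.9% of the values per library were not whole numbers and were rounded to whole numbers here, and in another table FPKM values, which the authors scaled by gene length and library total. The submitters' processing notes name HISAT, Bowtie2 and the build Rnor_6.0, and the counting program, annotation and strandedness are not given in the sources used here. The methods read for this series describe another siRNA and other times than the labels, so times are those of the labels.

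Each comparison was fitted with edgeR 4.0.16 (TMM, filterByExpr, quasi-likelihood F-test, R 4.3.3) on the libraries of the groups compared, and on all 12 for the difference between PE effects, with Benjamini-Hochberg adjustment over all tested genes. Passing means an adjusted p under 0.05, and the stricter call adds a fold change above 1.5. CPM values were TMM-normalized over 12 libraries, so their ratios differ slightly from the fitted changes. With these depths 3 counts equal 0.104 to 0.121 CPM, which covers counting error only. The procedure was tested on simulated data. Promoters were matched by gene ID (76 of 76 members matched RefSeq by ID, 61 with a promoter). RefSeq's assembly GRCr8 differs from the build of the tables and was used for names, neighbours and promoter sequence only.

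Members named are, per comparison, the 6 lower and 6 higher with the largest change among those passing, without overlap and with at least 10 counts in each library of the higher group, the 6 smallest p for the difference between PE effects, the disease-linked list, Mrps18a, Mrps18b, Mrps18c, Mrps30, Mrps36, Mrpl58, and the 3 highest and 3 lowest by FPKM. The members and lists were chosen with earlier results of these data known. Alternatives were DESeq2 1.42.0, limma 3.58.1 as voom and on log2(FPKM + 1) and log2(FPKM + 0.1), other size factors, other filters, a block for the replicate number, 1 fit of all 12 libraries, and leaving out each library. Of 26 symbols searched for mitochondrially encoded proteins, 0 were in the expression tables. Of 44 symbols listed with a bacterial counterpart, 41 were in the tables, and Mrpl9, Mrpl11 and Mrpl24 were not. These genes could therefore not be analysed here.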

Additional observations from a re-analysis of the deposited data

How the results depend on the processing

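The direction of the member median was kept in every alternative for PE in siNeg and for both siSlc25a26 comparisons. On log2(FPKM + 1) and log2(FPKM + 0.1) it turned for PE in siSlc25a26 (-0.070 and -0.089, from 0.11), where the median of all genes moved by more than 0.1, and in the same fits Mrps14 turned to -0.18 and -0.19 and Mrps18c to -0.17 and -0.17. On the same scales the median was -0.057 and -0.059 for siSlc25a26 without PE and -0.16 and -0.16 for the difference between PE effects, 45 and 44 members passed with siSlc25a26 under PE, 6 and 6 passed for the difference between PE effects, and 2 and 2 members, Mrpl36 and Mrpl57, both lower, were called at 1.5-fold for PE in siSlc25a26 in place of Mrps22. In siSlc25a26 without PE, 1 member, Mrpl1, was called at 1.5-fold with DESeq2, limma-voom, DESeq2 size factors in edgeR, no filter on low counts and both FPKM scales. Leaving out each library, the members passing numbered 13 to 26 for PE in siNeg, 21 to 43 for siSlc25a26 without PE and 13 to 32 under PE, and 0 for the difference between PE effects. Members called at 1.5-fold numbered 1 to 3, 0 to 1 and, for PE in siSlc25a26, 1 to 2. Medians ran from 0.057 to 0.14 for PE in siNeg, from -0.19 to -0.11 for siSlc25a26 without PE, from -0.21 to -0.13 under PE, from 0.046 to 0.15 for PE in siSlc25a26 and from -0.090 to -0.0028 for the difference between PE effects. For these alternatives the share of all genes that passed was not counted. The causes were not tested. Same-numbered libraries did not deviate together in every pair (correlations of -0.091 to 0.30). The best partner was the own number for 4, 3, 4 and 0 of 6 libraries in the first 4 comparisons. For replicates 1, 2 and 3 the correlations were 0.26, 0.022 and 0.30 for PE in siNeg. They were 0.26, 0.0042 and 0.20 for siSlc25a26 under PE. The labels do not say what same-numbered libraries share, and a pairing was not tested. With the replicate block 40, 30, 40, 26 and 0 members passed, beside 27, 33, 29, 36 and 0. For Mrpl1, Mrpl30 and Mrps21l, the members with the fewest counts, depth limits what can be seen.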
